A study of Oryctolagus cuniculus with 34 samples.

Results

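The gel effect is the difference between rabbit supraspinatus muscles repaired with an extracellular matrix gel and muscles repaired without it. The data described here show how that effect in the long term compared with the short term. The 4 groups were gel with repair in the long term, repair alone in the long term, gel with repair in the short term and repair alone in the short term, with 5 libraries each, so 20 of the 34 libraries of the series entered. Per the labels and the series' design text, the gel was prepared from tissue-derived extracellular matrix, every one of these muscles was repaired, and the tissue was the supraspinatus, which belongs to the rotator cuff of the shoulder. The labels used here give no age, strain, sex, length of the terms or type of injury for a library, and do not say whether each library is from its own animal. The names of the deposited files carry a code that differs among these 20 libraries and that each long-term library shares with 1 uninjured muscle, and it was read as an animal code. If it is not one, the p-values measure a spread between libraries that may be technical.

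The quantity tested was the interaction, the gel effect in the long term minus the gel effect in the short term, on the log2 scale. A positive value means that the gel-minus-repair difference was higher in the long term. Each gel effect was taken within its own term, so a difference between terms that acts alike on gel and repair libraries drops out of the interaction. All differences are fitted log2 values from edgeR's quasi-likelihood test on raw counts. Their standard errors (SE) were computed from the fitted value and the F statistic of its test. All groups shared each gene's estimate of spread, so an SE does not measure the spread within its own term. Levels are counts scaled to library size (CPM), which are not scaled for gene length and are compared only within a gene.

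As background, a torn or detached cuff muscle loses load, atrophies, and gains fat and fibrous tissue, and a repair puts load back on it. Muscle that rebuilds turns on developmental forms of sarcomere proteins, and fibroblast-like progenitors in the muscle deposit collagen and can become fat cells. A cell that makes many secreted or membrane proteins relies on the unfolded protein response, in which the sensor IRE1 (gene ERN1) splices the mRNA of the transcription factor XBP1, and XBP1 then raises chaperones and folding enzymes of the endoplasmic reticulum.

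The 10 long-term libraries held 12707443 to 15019158 counts and 13603 to 14433 detected genes, and the 10 short-term libraries 27589751 to 32043760 counts and 13978 to 15204 genes. The muscle markers ACTA1, CKM, MB, MYLPF, ATP2A1, PYGM, DES and TTN were high in all 20 libraries (CKM at 2270 to 28300 CPM, DES at 3390 to 13300 CPM). The mean log2 CPM of the cytosolic ribosomal protein genes was 4.28 to 5.46 in the long-term libraries and 7.88 to 8.67 in the short-term libraries, with no overlap between terms, so levels were not compared across terms. Of the 20 libraries, long-term gel replicate 1 (0.921), short-term repair replicate 4 (0.888) and short-term repair replicate 5 (0.900) had the lowest mean correlation with their group. The others lay at 0.926 to 0.973, without a clear gap, as short-term repair replicate 1 stood at 0.926. The mean log2 CPM of fibrillar collagen genes was 6.32 to 7.66 in short-term gel muscles, while short-term repair muscles spread from 4.39 in replicate 4 to 10.2 in replicate 5. In bulk tissue, fewer cells of a type and less RNA per cell cannot be told apart.

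Of 13034 genes tested, 1 had an interaction past an adjusted p of 0.05 (0.00767%), and this was XBP1. In the long term XBP1 was 2.35-fold higher with the gel than with repair alone, and in the short term it was 1.60-fold higher with repair alone than with the gel. XBP1 stood at 129, 63.8, 58.1, 72.2 and 56.6 CPM in long-term gel muscles, against 29.7, 33.3, 27.7, 34.1 and 36.9 CPM in long-term repair muscles. XBP1 stood at 106, 84.4, 98.1, 87.2 and 92.2 CPM in short-term gel muscles, against 162, 123, 125, 134 and 207 CPM in short-term repair muscles. In both terms the 5 gel libraries and the 5 repair libraries did not overlap, and the direction was opposite.

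The gel effect on XBP1 was 1.23 (SE 0.21) in the long term and -0.68 (SE 0.21) in the short term, and the interaction was 1.91 (SE 0.30, edgeR adjusted p = 0.036). Neither gel effect passed an adjusted p of 0.05 by itself (0.072 in the long term and 0.231 in the short term). The interaction lay between 1.41 and 1.99 in all 32 alternatives run, and it passed in 18 of them. It passed in 9 of the 20 fits that each left out 1 library, with adjusted p-values from 0.00264 to 0.125. Without long-term gel replicate 1, which had the highest XBP1 level of its group, the interaction was 1.66 (edgeR adjusted p = 0.00264). With each long-term muscle set against its own uninjured muscle the interaction was 1.41 (edgeR adjusted p = 0.544). Over the alternatives the XBP1 gel effect ranged from 0.69 to 1.27 in the long term and from -0.74 to -0.51 in the short term.

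**Figure D1:**
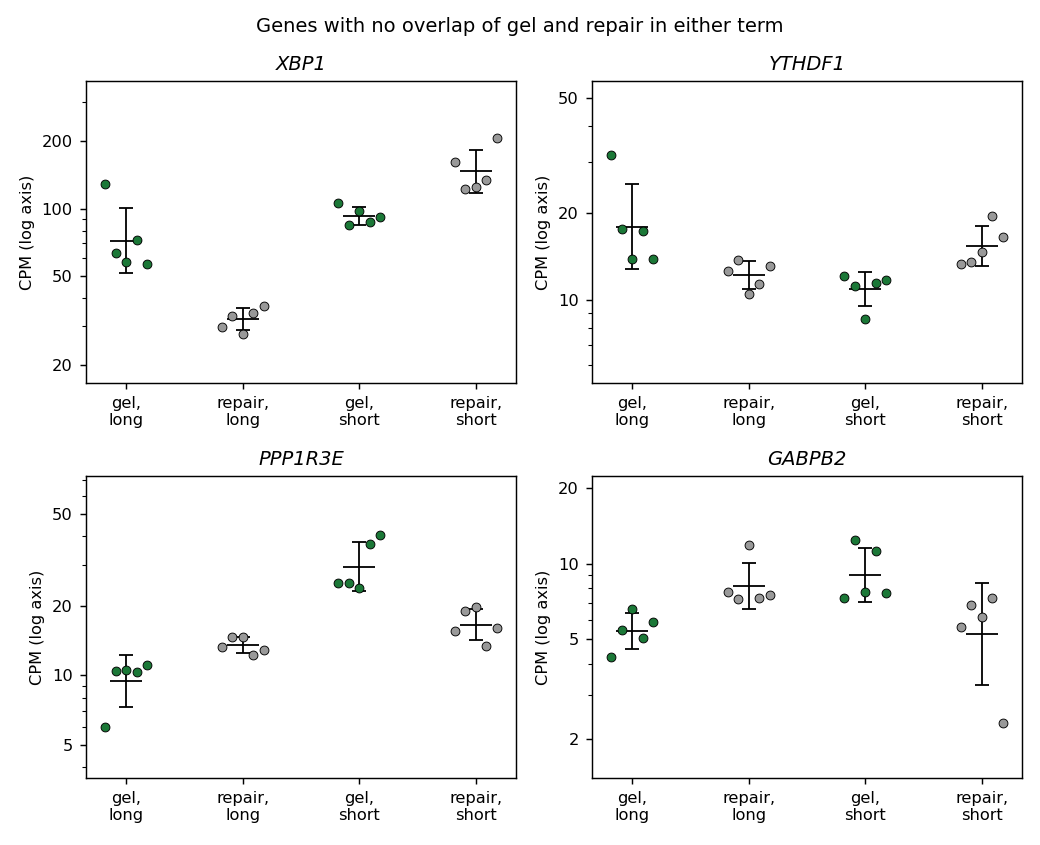
CPM (log axis) of XBP1, YTHDF1, PPP1R3E and GABPB2 in every library, with gel left of repair and the long term left of the short term. Points are libraries, and the bar and whiskers are the mean and SD of log2 CPM (n = 5). In each panel the green gel points lie wholly on one side of the grey repair points in the long term and wholly on the other side in the short term.

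The other members of the unfolded protein response list were read beside XBP1. Of 21 genes tested, 11 had a long-term gel effect above 0 and 0 had a short-term one above 0, while over all genes these shares were 52.4% and 44.8%. The median gel effect of the list was 0.07 in the long term and -0.46 in the short term, against 0.02 and -0.05 over all genes, and the interaction was above 0 for 20 of 21 members (56.4% of all genes). XBP1 was the 1 member past the adjusted threshold. An unadjusted p under 0.05 was reached by 2 of 21 members, XBP1 and HSPA5, a share near the 9.15% over all genes. HSPA5, the chaperone BiP, stood at 330, 190, 196, 179 and 252 CPM in long-term gel muscles, against 155, 176, 201, 189 and 185 CPM in long-term repair muscles, which overlapped. HSPA5 stood at 151, 189, 195, 127 and 97.9 CPM in short-term gel muscles, against 161, 239, 158, 167 and 313 CPM in short-term repair muscles, which overlapped too. Its interaction was 0.79 (SE 0.33, edgeR adjusted p = 0.528).

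Other members of the list had interactions of the same sign and smaller size. The values were 0.85 for MANF, a secreted stress factor of the endoplasmic reticulum, 0.65 for the transcription factor ATF4 and 0.56 for the XBP1-splicing sensor ERN1. ATF6, the sensor of a separate branch, stood at 0.03, and DDIT3, the stress-induced factor CHOP, at -0.06. The list's median interaction was 0.48, and between 0.28 (without short-term repair replicate 5) and 0.61 in the alternatives. CREB3L2, a transcription factor of the same family of membrane-bound stress sensors as ATF6 that lay outside the list, had a long-term effect of 0.47 (SE 0.19) and a short-term effect of -0.58 (SE 0.19). Its interaction was 1.05 (SE 0.27, edgeR adjusted p = 0.509). Without short-term repair replicate 5, at 81.6 CPM against 40.7 to 46.4 CPM in the rest of its group, the CREB3L2 interaction was 0.82.

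The number of genes whose gel effect turned was described by size. A gene was counted as turned where its effects in the 2 terms had opposite signs and were each at least 0.5 in log2. This held for 448 genes (3.44% of those tested), of which 316 were higher in the short term and lower in the long term and 132 the reverse. The median SE of a gel effect was 0.29 in the long term and 0.28 in the short term, and 159 of the 448 genes had a mean log2 CPM of at least 1. Over all genes tested, 1192 had an unadjusted interaction p under 0.05 (9.15%), with 727 above 0 (5.58%) and 465 below 0 (3.57%).

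An unadjusted p under 0.05 in both terms was reached by 99 genes. They were 9.82% of the long-term list, while 12.5% of all genes had such a p in the short term. They were 6.06% of the short-term list, while 7.73% of all genes had such a p in the long term. Both shares lay below those over all genes. The effects of 34 of these 99 had opposite directions, and 65 had the same one. Genes whose gel and repair libraries did not overlap numbered 190 in the long term (1.46%) and 255 in the short term (1.96%). With the gel higher these were 1.04% of genes in the long term and 1.02% in the short term, and with the gel lower 0.414% and 0.936%. Both terms were free of overlap, in opposite directions, for 4 genes (0.0307%), which were XBP1, YTHDF1, PPP1R3E and GABPB2, and in the same direction for 3 genes (0.0230%).

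YTHDF1, a reader of methylated adenosine in mRNA, had the same order of effects as XBP1. It stood at 31.7, 17.6, 13.9, 17.3 and 13.9 CPM in long-term gel muscles, against 12.6, 13.8, 10.5, 11.4 and 13.1 CPM in long-term repair muscles. YTHDF1 stood at 12.1, 11.2, 8.62, 11.5 and 11.7 CPM in short-term gel muscles, against 13.3, 13.6, 14.7, 19.6 and 16.5 CPM in short-term repair muscles. The margins between the groups were narrow, 13.9 against 13.8 CPM in the long term. The interaction was 1.11 (SE 0.28, edgeR adjusted p = 0.509), and 0.87 without long-term gel replicate 1.

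PPP1R3E, a subunit that targets protein phosphatase 1 to glycogen, had the opposite order. It stood at 5.97, 10.5, 10.6, 10.3 and 11.1 CPM in long-term gel muscles, against 13.3, 14.7, 14.7, 12.3 and 12.9 CPM in long-term repair muscles. PPP1R3E stood at 25.2, 25.2, 23.9, 37.1 and 40.5 CPM in short-term gel muscles, against 15.6, 19, 19.8, 13.4 and 16.1 CPM in short-term repair muscles. The interaction was -1.34 (SE 0.27, edgeR adjusted p = 0.224), and no left-out library moved it outside -1.42 to -1.19. With DESeq2 the interaction passed (adjusted p = 0.00428). The glycolysis and glycogen list had a median gel effect of 0.45 in the long term and 0.10 in the short term (20 genes). Its median interaction was 0.25, and it was below 0 in 5 alternatives, with -0.39 without short-term repair replicate 4 and -0.55 without that library and long-term gel replicate 1.

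GABPB2, a subunit of the GA-binding protein transcription factor, followed PPP1R3E. It stood at 4.27, 5.45, 6.62, 5.06 and 5.86 CPM in long-term gel muscles, against 7.69, 7.26, 11.9, 7.33 and 7.51 CPM in long-term repair muscles. GABPB2 stood at 7.34, 12.4, 7.73, 11.2 and 7.62 CPM in short-term gel muscles, against 5.58, 6.85, 6.16, 7.32 and 2.33 CPM in short-term repair muscles. The interaction was -1.32 (SE 0.37, edgeR adjusted p = 0.509).

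**Figure D2:**
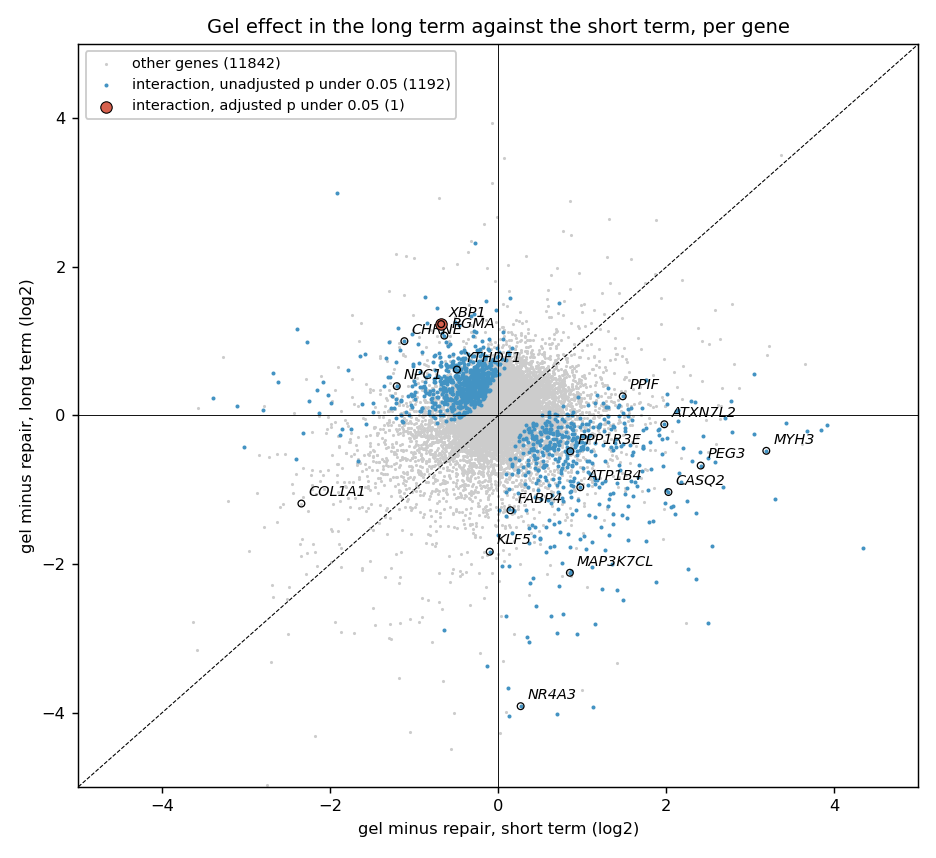
Gel minus repair (log2) in the long term, on the vertical axis, against the short term, on the horizontal axis, for 13034 genes, of which 4 lie outside the axes. XBP1 (red) lies in the upper left quadrant, higher with the gel in the long term and lower in the short term. The 1192 genes with an unadjusted interaction p under 0.05 (blue) lie to both sides of the dashed line of equal effects.

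Further genes that turned were chosen by their effects, so their values are a description. RGMA, a guidance molecule that also acts as a co-receptor for bone morphogenetic proteins, had effects of 1.07 (SE 0.29) in the long term and -0.64 (SE 0.29) in the short term. Without long-term gel replicate 1, at 74.6 CPM against 16.8 to 33.9 in the rest of its group, the RGMA interaction was 1.35 in place of 1.72. SALL2, a zinc-finger transcription factor, had effects of 0.99 and -0.63. CHRNE, the adult subunit of the muscle acetylcholine receptor, stood at 17.5, 6.93, 6.09, 8.21 and 7.53 CPM in long-term gel muscles, against 6.67, 7.44, 3.67, 2.04 and 3.19 CPM in long-term repair muscles. CHRNE stood at 15.8, 8.95, 18.5, 7.68 and 7.99 CPM in short-term gel muscles, against 37, 17.5, 20.2, 7.78 and 45.5 CPM in short-term repair muscles. The groups overlapped in both terms, and the interaction was 2.12 (SE 0.62, edgeR adjusted p = 0.509). GATSL2 had effects of 0.66 and -0.60.

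In the other direction, higher with the gel in the short term and lower in the long term, stood ATP1B4, a muscle protein related to the sodium pump's beta subunits, with effects of -0.97 (SE 0.42) in the long term and 0.97 (SE 0.42) in the short term. VWA3A had -0.93 (SE 0.25) and 0.69 (SE 0.23), AKNAD1 had -0.69 and 0.81, and the paired-box factor PAX9 had -0.67 and 0.88. VWA3A ranged over 2.03 to 4.02 CPM in long-term gel muscles, against 4.04 to 5.71 CPM in long-term repair muscles, without overlap. VWA3A ranged over 9.98 to 17.3 CPM in short-term gel muscles, against 5.27 to 10.1 CPM in short-term repair muscles, which overlapped. Its interaction was -1.63 (SE 0.34, edgeR adjusted p = 0.286).

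Genes whose effect faded were those with a short-term effect of at least 1 and a long-term effect under 0.5 in size. They numbered 503 (3.86%), with 276 higher and 227 lower with the gel in the short term. The opposite class, with an effect that emerged in the long term, held 283 genes (2.17%). A class with the same sign and at least 0.5 in both terms held 671 genes (5.15%).

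In the long term 0 genes passed an adjusted p of 0.05 in edgeR's test (0%), with 1008 at an unadjusted p under 0.05 (7.73%), while 3 genes passed with DESeq2 and 3 with limma voom and quality weights. In the short term 4 genes passed in edgeR's test (0.0307%), with 1635 at an unadjusted p under 0.05 (12.5%). The short-term calls were ATXN7L2, PPIF and CD79B, which rose with the gel, and PXK, which fell. Their interactions did not pass in the edgeR fit of the 20 libraries. Leaving out short-term repair replicate 4 raised the short-term calls to 362, and leaving out long-term gel replicate 1 as well raised them to 1023, while the interaction called 1 gene in both cases.

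ATXN7L2, of the ataxin 7 family of chromatin proteins, was 3.93-fold higher with the gel in the short term. In the long term it stood at 11.3, 9.11, 8.56, 10 and 9.71 CPM in gel muscles, against 8.91, 10.8, 13.6, 7.82 and 11.8 CPM in repair muscles, which overlapped. ATXN7L2 stood at 33.1, 57.8, 62.3, 37 and 26.5 CPM in short-term gel muscles, against 9.28, 19.2, 8.88, 8.49 and 9.25 CPM in short-term repair muscles, without overlap. The gel effect was -0.12 (SE 0.26) in the long term and 1.97 (SE 0.26, edgeR adjusted p = 0.00308) in the short term, and the interaction was -2.09 (SE 0.36, edgeR adjusted p = 0.0781). The interaction passed in DESeq2 (adjusted p = 0.000466), with all 34 libraries in 1 edgeR fit (adjusted p = 0.00138), without short-term repair replicate 2 (edgeR adjusted p = 0.00443) and without short-term gel replicate 5 (edgeR adjusted p = 0.0342). Over all alternatives its adjusted p ranged from 0.000466 to 0.268.

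PPIF, cyclophilin D, a regulator of the mitochondrial permeability pore, was 2.79-fold higher with the gel in the short term. It stood at 73.2, 38.7, 39.4, 37 and 58.5 CPM in long-term gel muscles, against 40.4, 50.7, 30.5, 34 and 50.9 CPM in long-term repair muscles, which overlapped. PPIF stood at 33.5, 46.9, 57.3, 43.9 and 31.6 CPM in short-term gel muscles, against 13.7, 21.9, 12.9, 18.5 and 9.44 CPM in short-term repair muscles, without overlap. The gel effect was 0.26 (SE 0.25) in the long term and 1.48 (SE 0.25, edgeR adjusted p = 0.0432) in the short term, and the interaction was -1.22 (SE 0.35, edgeR adjusted p = 0.509).

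PXK, a protein with a lipid-binding PX domain and a kinase-like domain, was 1.73-fold higher in repair muscles than in gel muscles in the short term. It stood at 36.2, 29.9, 34.2, 34.1 and 27.8 CPM in long-term gel muscles, against 26.8, 28.8, 27.4, 26.4 and 33.3 CPM in long-term repair muscles, which overlapped. PXK stood at 14.7, 12.4, 11.5, 13.9 and 12.9 CPM in short-term gel muscles, against 23.5, 17.8, 20, 25.5 and 26.7 CPM in short-term repair muscles, without overlap. The gel effect was 0.18 (SE 0.14) in the long term and -0.79 (SE 0.14, edgeR adjusted p = 0.0432) in the short term, and the interaction was 0.98 (SE 0.20, edgeR adjusted p = 0.224), which passed with DESeq2 (adjusted p = 0.00272).

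CD79B, a chain of the B cell receptor, was 6.47-fold higher with the gel in the short term, at low levels. It stood at 0.366, 0.0779, 0.265, 0.166 and 0.251 CPM in long-term gel muscles, against 0.204, 0.181, 0.367, 0.0814 and 0.282 CPM in long-term repair muscles, which overlapped. CD79B stood at 1.54, 2.41, 2.03, 2.77 and 0.888 CPM in short-term gel muscles, against 0.45, 0.554, 0.181, 0.167 and 0.0951 CPM in short-term repair muscles, without overlap. Levels above 0.554 CPM occurred in short-term gel muscles alone, so the gene may have passed the expression filter through that group. The gel effect was -0.04 (SE 0.61) in the long term and 2.69 (SE 0.47, edgeR adjusted p = 0.0432) in the short term, and the interaction was -2.73 (SE 0.77, edgeR adjusted p = 0.509). The call on CD79B in the short term held in 9 of 32 alternatives, that on PPIF in 11 of 33, that on PXK in 10 of 33 and that on ATXN7L2 in 31 of 33.

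Among the 10 genes above 0 with the smallest interaction p, within the limits of the naming rule given below, NPC1 followed PXK. NPC1, which moves cholesterol out of lysosomes, stood at 63.1, 57, 73, 57.2 and 38.1 CPM in long-term gel muscles, against 30.5, 58.3, 29.1, 66.5 and 35.1 CPM in long-term repair muscles, which overlapped. NPC1 stood at 40.1, 18.6, 21.6, 24.4 and 26.2 CPM in short-term gel muscles, against 63.8, 62, 73.6, 40.3 and 63.4 CPM in short-term repair muscles, and the highest gel library lay just under the lowest repair library. The interaction was 1.60 (SE 0.36, edgeR adjusted p = 0.495). KCTD5, an adaptor of the cullin-3 ubiquitin ligase, GATAD1, a chromatin-associated zinc-finger protein, and PRRC2B had long-term effects of 0.23, 0.29 and 0.28, against short-term effects of -0.62, -0.67 and -0.62.

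Among the 10 genes below 0 with the smallest interaction p, within the limits of the naming rule, several had large short-term effects. LOXHD1, known from hair cells of the inner ear, had -0.61 (SE 0.53) in the long term and 2.31 (SE 0.48) in the short term, and PKD2L2, of the polycystin channel family, had -0.52 (SE 0.43) and 1.95 (SE 0.41). The short-term groups did not overlap for either gene, at 5.55 to 26.5 CPM in gel muscles against 0.975 to 4.48 CPM in repair muscles for LOXHD1. PEG3, an imprinted zinc-finger gene expressed in muscle progenitors, had 2.41 (SE 0.56) in the short term, with short-term gel replicate 3 at 137 CPM against 10.9 to 35.3 CPM in the rest of its group. Without that library its interaction was -1.97 in place of -3.08. MAP3K7CL had a long-term effect of -2.12 (SE 0.56) and an interaction of -2.97 (SE 0.76), and its groups overlapped in both terms. TTC32, SMCO2 and LMO7, a LIM-domain protein of muscle, had interactions of -1.08, -2.59 and -1.50. Of these 20 genes, XBP1 was the 1 past the adjusted threshold in the edgeR fit of the 20 libraries. With DESeq2 the interactions of NPC1, KCTD5, RGMA, GATAD1, VWA3A, PKD2L2, LOXHD1, MAP3K7CL and PEG3 passed too, at adjusted p-values of 0.0211 to 0.0437.

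**Figure D3:**
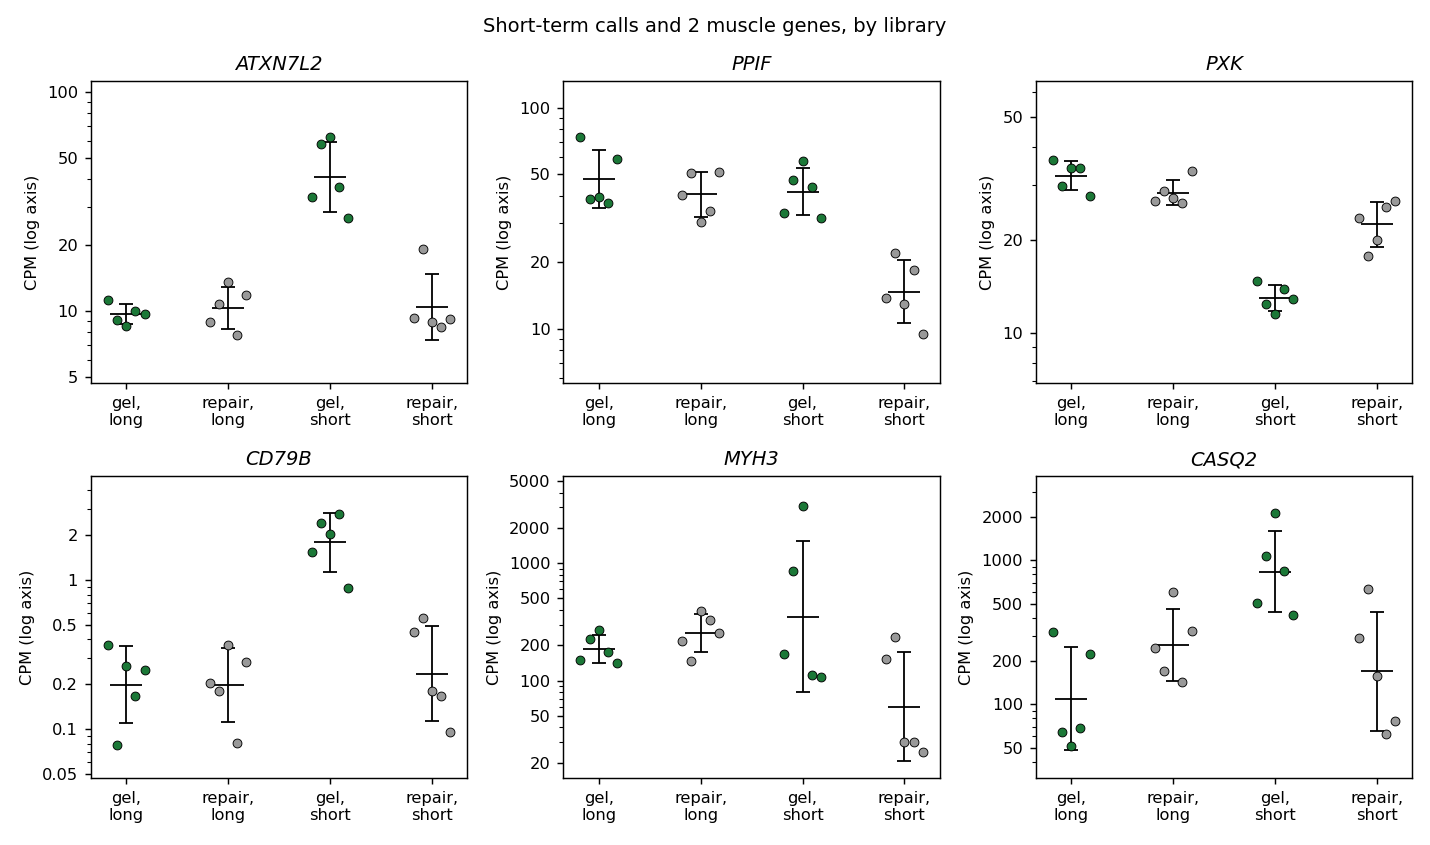
CPM (log axis) of the 4 genes past the short-term threshold and of the muscle genes MYH3 and CASQ2 in every library, with gel left of repair and the long term left of the short term. Points are libraries, and the bar and whiskers are the mean and SD of log2 CPM (n = 5). For the 4 called genes gel and repair lie apart in the short term and overlap in the long term, while MYH3 and CASQ2 overlap in both terms.

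Lists of sarcomere and muscle stress genes had the lowest median interactions after the lymphocyte list, among lists with at least 5 genes tested. Slow fibre genes had a median gel effect of 0.19 in the long term and 1.51 in the short term (9 genes, of which 5 and 9 were above 0). Developmental sarcomere genes had 0.04 and 1.26 (10 genes, of which 5 and 10 were above 0), and genes of muscle stress and ankyrin repeats had 0.03 and 1.09 (12 genes, of which 7 and 12 were above 0). The median interactions, -1.18 for slow fibre and -1.25 for developmental sarcomere genes, and that of the muscle stress genes kept their sign in all 32 alternatives, but their size moved. The slow fibre median was -0.69 without short-term gel replicate 4, -1.89 without long-term gel replicate 1 and -2.72 with long-term muscles set against their own uninjured muscle, where the developmental sarcomere median was -2.90. Members past the adjusted interaction threshold numbered 0 in each list. An unadjusted p under 0.05 was reached by 3, 3 and 2 members, all below 0, against 3.57% of all genes. Over all genes, for these lists and those below, 52.4% of long-term and 44.8% of short-term effects were above 0.

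CASQ2, the slow and cardiac form of the calcium store protein calsequestrin, stood at 319, 64.2, 50.9, 68 and 222 CPM in long-term gel muscles, against 245, 169, 603, 142 and 323 CPM in long-term repair muscles. CASQ2 stood at 504, 1070, 2130, 837 and 417 CPM in short-term gel muscles, against 287, 636, 158, 62.4 and 76.3 CPM in short-term repair muscles. The groups overlapped in both terms, and the interaction was -3.06 (SE 0.93, edgeR adjusted p = 0.509). MYOZ2, a slow-fibre protein of the Z disc that binds calcineurin, ranged over 103 to 458 CPM in long-term gel muscles, against 141 to 448 CPM in long-term repair muscles. MYOZ2 stood at 215, 253, 344, 834 and 364 CPM in short-term gel muscles, against 70, 202, 155, 36.8 and 74.4 CPM in short-term repair muscles, without overlap.

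MYH3, the embryonic myosin heavy chain, stood at 149, 225, 272, 174 and 140 CPM in long-term gel muscles, against 217, 148, 391, 325 and 256 CPM in long-term repair muscles. MYH3 stood at 168, 850, 3060, 112 and 107 CPM in short-term gel muscles, against 153, 234, 29.8, 29.8 and 24.4 CPM in short-term repair muscles. The groups overlapped, 1 gel library lay far above the rest, and the interaction was -3.67 (SE 1.14, edgeR adjusted p = 0.509), or -2.20 without short-term gel replicate 3. Myosin heavy chain genes are near-identical in places, so reads may be split between them. MYBPC1, the slow myosin-binding protein C, had effects of -0.29 (SE 0.35) in the long term and 0.93 (SE 0.35) in the short term. The small heat shock protein HSPB7 had 0.11 and 1.57, the stretch-responsive ankyrin protein ANKRD2 had -0.17 and 1.75, and the calcium pump inhibitor PLN had -0.90 and 1.63.

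The satellite cell factor PAX7 had effects of 0.46 (SE 0.44) and 0.92 (SE 0.42), and the differentiation factor MYOG 0.21 (SE 0.29) and -0.28 (SE 0.28). Fast fibre genes had the opposite order, with a median effect of 0.54 in the long term and -0.07 in the short term (11 genes, of which 11 and 5 were above 0). Their median interaction was 0.32, and -0.47 without short-term repair replicate 4, the library with the highest fast fibre score. It was below 0 in 5 alternatives in all.

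Mitochondrial lists had smaller median effects in the long term than in the short term. Respiratory chain genes (oxidative phosphorylation) had a median effect of 0.20 in the long term and 0.61 in the short term (26 genes, of which 23 and 26 were above 0). Genes of the citric acid cycle and fatty acid oxidation had 0.02 and 0.50 (31 genes, of which 17 and 31 were above 0), and mitochondrial ribosomal proteins 0.12 and 0.30 (24 genes). The median interaction was -0.39 for each of the first 2 lists, with -0.83 and -0.79 without short-term repair replicate 4 and long-term gel replicate 1, and -0.26 and -0.27 without short-term repair replicate 5. ETFA, which passes electrons from fatty acid oxidation to the respiratory chain, stood at 277, 193, 195, 186 and 256 CPM in long-term gel muscles, against 217, 228, 246, 184 and 295 CPM in long-term repair muscles. ETFA stood at 124, 195, 169, 189 and 158 CPM in short-term gel muscles, against 67.5, 107, 96.2, 143 and 71 CPM in short-term repair muscles, and the overlap came from short-term repair replicate 4. Its interaction was -0.86 (SE 0.30, edgeR adjusted p = 0.509). The dehydrogenase ACADL had an interaction of -1.08, and the respiratory chain subunits NDUFB3 and ATP5F1 -0.80 and -0.70. PPARGC1A, the coactivator of mitochondrial biogenesis, had effects of -0.47 (SE 0.46) and 0.85 (SE 0.47).

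Atrophy and FOXO genes had median effects in the opposite order. The median was 0.14 in the long term and -0.43 in the short term (15 genes, of which 12 and 1 were above 0), and the interaction was above 0 for 12 of 15. It had an unadjusted p under 0.05 for 5 members, FBXO31, TRIM32, GABARAPL1, MAP1LC3B and SQSTM1, and 0 passed the adjusted threshold. All 5 were above 0, as were 5.58% of all genes at that p, and 56.4% of all genes had an interaction above 0. TRIM32, a ubiquitin ligase of the sarcomere, stood at 24.7, 19.5, 22.9, 17.4 and 17.7 CPM in long-term gel muscles, against 14.1, 17.5, 12.6, 17.2 and 17.5 CPM in long-term repair muscles, with a slight overlap. TRIM32 stood at 9.02, 8.64, 7.85, 10.1 and 8.58 CPM in short-term gel muscles, against 10.3, 10.1, 11.7, 17.2 and 10.5 CPM in short-term repair muscles, which met at 10.1 CPM. Its interaction was 0.81 (SE 0.24, edgeR adjusted p = 0.509). FBXO31, an F-box protein, had 1.23 (SE 0.38), and 0.87 without long-term gel replicate 1. The autophagy genes MAP1LC3B and SQSTM1 had 0.88 and 0.96. FBXO32 and TRIM63, the ubiquitin ligases best known from wasting muscle, had 1.01 (SE 0.58) and 0.62 (SE 0.41). The list's median interaction was 0.62, and 0.40 to 0.86 in the alternatives.

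**Figure D4:**
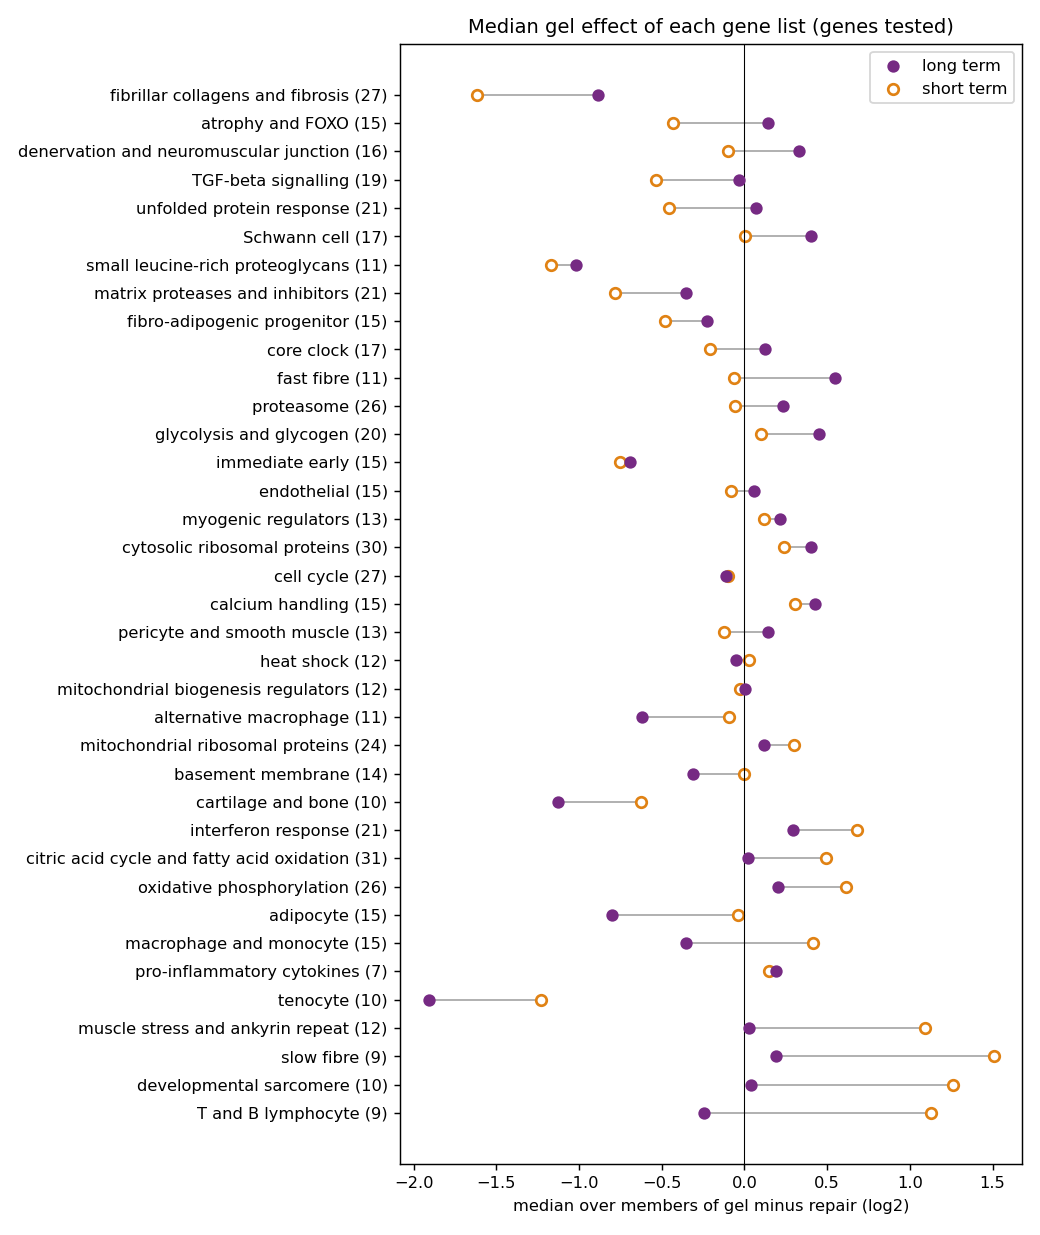
Median gel minus repair (log2) over the tested members of the 37 gene lists with at least 5 genes tested, in the long term (filled) and in the short term (open), ordered by the median interaction. The lymphocyte, developmental sarcomere and slow fibre lists lie furthest apart with the short term to the right, and the unfolded protein response and atrophy lists have the short term to the left.

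The collagen and proteoglycan lists had median gel effects below 0 in both terms, and 0 of their members passed an adjusted p of 0.05 in either term. In the short term the collagen scores of all gel muscles lay within the range of the repair muscles. Fibrillar collagen and fibrosis genes had a median effect of -0.89 in the long term and -1.62 in the short term (27 genes, of which 1 and 0 were above 0), and 18 of the 27 had the same sign and at least 0.5 in both terms. Small leucine-rich proteoglycans had -1.02 and -1.17 (11 genes). The median interaction of the collagen list was 0.78, and -0.26 without short-term repair replicate 5. With that library kept it was -0.0021 with limma voom and quality weights, -0.06 with 1 variance factor per group and -0.05 with the replicate block. COL1A1 stood at 253, 167, 115, 172 and 118 CPM in long-term gel muscles, against 394, 106, 292, 878 and 209 CPM in long-term repair muscles. COL1A1 stood at 2460, 1460, 2550, 621 and 725 CPM in short-term gel muscles, against 5810, 2320, 2590, 81.7 and 28900 CPM in short-term repair muscles. The short-term repair libraries held both the lowest and the highest of these levels, and the interaction was 1.16 (SE 1.19), or -0.40 without short-term repair replicate 5.

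COL3A1 had effects of -0.41 (SE 0.65) in the long term and -1.90 (SE 0.67) in the short term, and its interaction of 1.49 was 0.31 without short-term repair replicate 5. The proteoglycan gene DCN had -0.58 (SE 0.30) and -0.91 (SE 0.31). P4HA2, an enzyme that hydroxylates collagen, had an interaction of 1.66 (SE 0.71), which was 0.39 without short-term repair replicate 5 at 205 CPM. The same library carried the interactions of IER3, an immediate early gene, and TAGLN, a smooth muscle actin-binding protein, which were 2.17 and 2.40 with it and 0.03 and 0.47 without it. PODN, a proteoglycan, had an interaction of 1.17, and 0.71 without short-term repair replicate 1. PDGFRA, the surface marker of fibro-adipogenic progenitors, had effects of -0.23 (SE 0.37) and -1.14 (SE 0.37), and 15 genes of that cell type had medians of -0.23 and -0.48.

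Tenocyte and adipocyte lists had lower median effects in the long term than in the short term. Tenocyte genes had a median effect of -1.91 in the long term and -1.23 in the short term (10 genes, 0 above 0 in either). Their median interaction was -0.89, and -0.11 without long-term repair replicate 4. Adipocyte genes had -0.80 and -0.04 (15 genes, of which 3 and 7 were above 0). FABP4, a fatty acid binding protein of fat cells, stood at 85.9, 121, 70.5, 62 and 77.2 CPM in long-term gel muscles, against 384, 64.3, 337, 124 and 98.4 CPM in long-term repair muscles, which overlapped. FABP4 stood at 359, 78.7, 61.6, 213 and 248 CPM in short-term gel muscles, against 90.2, 285, 214, 111 and 170 CPM in short-term repair muscles, which overlapped. Its effects were -1.28 (SE 0.50) and 0.14 (SE 0.49). The fat cell regulator PPARG had -0.89 (SE 0.54) and -0.04 (SE 0.53), the adipokine ADIPOQ had -0.80 (SE 0.39) and -0.18 (SE 0.39), and the fatty acid carrier CD36 had -0.66 and 0.54. With limma voom and sample quality weights the median interaction of the adipocyte list was -0.04, in place of -0.73, and without long-term repair replicate 1 it was -0.18.

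Genes whose effect emerged in the long term were led by KLF5, a zinc-finger transcription factor, which was 3.57-fold higher in repair muscles than in gel muscles in the long term. It stood at 5.85, 5.14, 9, 5.06 and 15 CPM in long-term gel muscles, against 32.2, 8.53, 52.7, 33.1 and 16.3 CPM in long-term repair muscles, with 2 gel libraries above the lowest repair library. KLF5 stood at 26.1, 17.3, 37.9, 26.3 and 26.2 CPM in short-term gel muscles, against 28.1, 43.1, 35.2, 25.6 and 12 CPM in short-term repair muscles, which overlapped. The interaction was -1.73 (SE 0.58, edgeR adjusted p = 0.509). NR4A3, an immediate early nuclear receptor, ranged over 1.34 to 5.02 CPM in long-term gel muscles, against 2.65 to 148 CPM in long-term repair muscles, and its interaction was -4.18 (SE 1.34).

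COLGALT2, which adds galactose to collagen, had a long-term effect of 1.54 (SE 0.41) and a short-term effect of -0.15 (SE 0.38), and PPP1R37, an inhibitor of protein phosphatase 1, had 0.76 (SE 0.19) and -0.16 (SE 0.19). For both genes the long-term gel and repair libraries did not overlap.

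The T and B lymphocyte list and the macrophage and monocyte list had median effects below 0 in the long term and above 0 in the short term, while alternative macrophage genes had -0.62 in the long term and -0.09 in the short term. T and B lymphocyte genes had a median effect of -0.24 in the long term and 1.13 in the short term (9 genes, of which 1 and 9 were above 0). Of 21 listed genes, 18 were in the counts and 9 passed the expression filter. A gene can pass that filter by its level in short-term gel muscles alone, so these values are a description and give no support. Of the 9 genes tested, 2 had an unadjusted interaction p under 0.05, both below 0, against 3.57% of all genes. The list's median interaction was -1.57, and -1.03 without long-term repair replicate 3. Its mean log2 CPM was -1.62 to -1.04 in long-term gel muscles, against -1.49 to -0.30 in long-term repair muscles. In the short term it was 0.43 to 2.72 in gel muscles, against -1.29 to 1.31 in repair muscles. These are levels of about 1 CPM or less in most long-term libraries, so few counts stand behind each long-term value. IL7R, the interleukin 7 receptor of T cells, stood at 0, 0.0779, 0.177, 0.0829 and 0 CPM in long-term gel muscles, against 0.204, 0.272, 0.587, 0.244 and 0.282 CPM in long-term repair muscles, without overlap. IL7R ranged over 0.074 to 2.06 CPM in short-term gel muscles, against 0.167 to 0.593 CPM in short-term repair muscles.

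Macrophage and monocyte genes had medians of -0.35 and 0.42 (15 genes, of which 2 and 8 were above 0), and their median interaction of -0.79 was -0.08 without long-term repair replicate 1. The scavenger receptor CD163 had effects of -0.62 (SE 0.85) and -1.50 (SE 0.72). Without short-term repair replicate 1, at 34.2 CPM against 0.502 to 10.9 CPM in the rest of its group, its interaction was -0.22 in place of 0.88. MMP12, the macrophage elastase, stood at 0, 0.0779, 0, 0 and 0 CPM in long-term gel muscles, against 1.7, 0, 6.68, 0.57 and 0 CPM in long-term repair muscles. MMP12 stood at 20.2, 2.55, 1.72, 0.205 and 0.962 CPM in short-term gel muscles, against 0.654, 0.101, 0.362, 0 and 1.33 CPM in short-term repair muscles. With so many libraries at or near 0 no fold is given. The chemokine CXCL9, induced by interferon gamma, had a long-term effect of 0.19 (SE 0.68) and a short-term effect of 2.30 (SE 0.57). Its counts were low, with a mean log2 CPM of -0.61 over the 20 libraries. Interferon response genes had medians of 0.29 in the long term and 0.68 in the short term (21 genes). The median interaction of the interferon list was -0.38, with 0.06 without short-term gel replicate 3 and -1.07 without short-term repair replicate 1.

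The globin gene HBB2 and ALAS2, the haem synthesis enzyme of red cell precursors, were the 2 erythroid genes tested. HBB2 stood at 296, 67, 57.7, 85.6 and 87 CPM in long-term gel muscles, against 56.9, 56.9, 38.8, 36 and 74.9 CPM in long-term repair muscles. HBB2 stood at 36.3, 49.9, 79.7, 108 and 30 CPM in short-term gel muscles, against 8.47, 64.9, 64.6, 196 and 364 CPM in short-term repair muscles. The groups overlapped in both terms, and globin genes have near-identical copies.

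**Figure D5:**
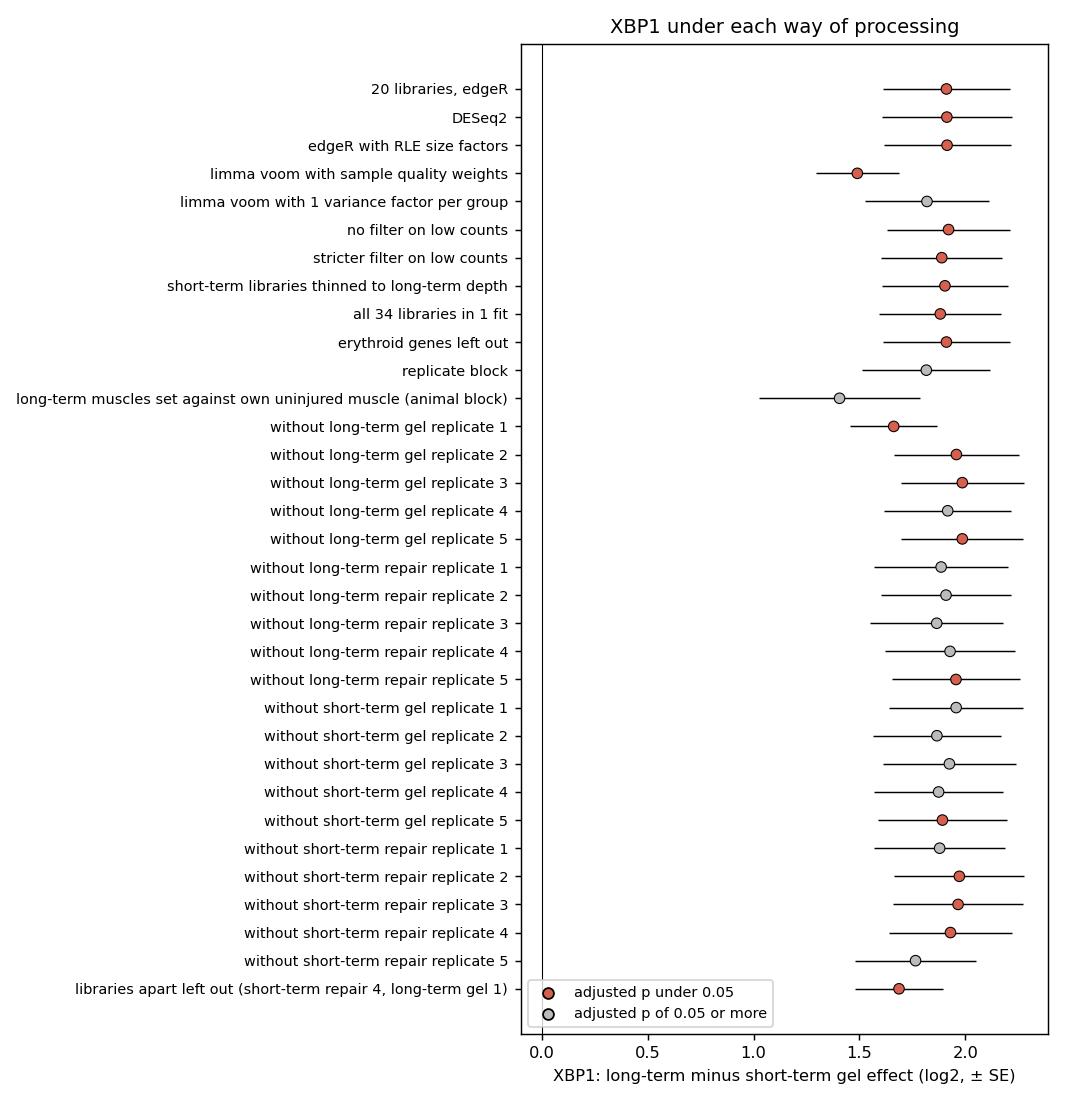
Interaction of XBP1 (log2, with its SE) in the edgeR fit of the 20 libraries and in 32 alternatives, with an adjusted p under 0.05 in red and of 0.05 or more in grey. Every point lies between 1.41 and 1.99 and is above 0, while the adjusted p passed in 18 of the 32 alternatives.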

How the data were processed

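Gene-level raw read counts, whole numbers without normalization, were deposited by the authors, 1 file per library. STAR and edgeR, and the build OryCun2.0, are listed with no role, per the submitters' processing notes. The sources used here give no tool versions, counting method, annotation or strand setting, so overlapping genes and near-identical copies cannot be told apart. A commercial laboratory extracted the RNA and built the libraries, per the labels' protocols.

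Each file held 18210 entries. In 1 file 26 gene names had become dates. These entries were left out of all libraries (0.163% of counts at most). Sums were taken over 15 entries that share 7 symbols, which left 18176 genes. A RefSeq table of another rabbit assembly gave names only, matching 2379 of 3500 LOC identifiers. No pair of 91 within groups was identical (lowest chi-square per degree of freedom 10.4).

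Counts of the 20 gel and repair libraries were fitted together in R 4.3.3 with edgeR 4.0.16 (filtering by expression, TMM scaling, robust quasi-likelihood test, 2-sided), leaving 13034 genes. Adjustment was by Benjamini-Hochberg over all genes, at a threshold of 0.05. Groups and replicate numbers came from the titles. Same-numbered libraries did not deviate together (correlations of -0.299 to 0.407, 2 of 10 over 0.1), so the numbers were not taken to pair them. Alternatives used DESeq2 1.42.0 and limma 3.58.1, other filters, size factors, depth and sample sets, and each library left out. The fit was tested on simulated data.

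The groups compared, 39 gene lists, a panel of 22 genes (20 tested) and the naming rule were chosen with earlier results of these data known. The rule named the panel, the 10 genes on each side of 0 with the smallest interaction p, and up to 5 genes per direction that turned, by size. For each term it named the 5 genes with the smallest p there whose effect in the other term was under 0.5 in size. In each list it named up to 2 members at an unadjusted interaction p under 0.05. Of the genes it named, 2 are not reported here. Named genes outside the lists have a mean log2 CPM (prior count 2) of at least 1. The genes ranked by p or by size were taken within that limit, and those known only by a LOC identifier were left out. Other list members named were chosen after their values were seen.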

Additional observations from a re-analysis of the deposited data

Results flagged for a closer look

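In 488 sets of 5 libraries of a group (each named gene and list score), 44 held a library far from the other 4, where chance gives about 1 in 20. Long-term gel replicate 1 accounted for 17, short-term repair replicate 4 for 9 and short-term repair replicate 5 for 4.

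Long-term gel replicate 1 was highest of its group for YTHDF1 (31.7 CPM), CHRNE (17.5 CPM), HBB2 (296 CPM), HSF1 (237 CPM) and PSMD2 (627 CPM). It was lowest for PPARGC1A (10.1 CPM), DCN (165 CPM), PPP1R3E (5.97 CPM), TTC32 (9.38 CPM), TGFB2 (5.73 CPM) and HSPD1 (75.1 CPM). By list score, in mean log2 CPM, it was highest for denervation and neuromuscular junction (4.84), pericyte and smooth muscle (6.29), erythroid (6.28), proteasome (7.02) and cytosolic ribosomal protein genes (5.46), and lowest for mitochondrial biogenesis regulators (4.26). XBP1 was also highest in this library, without meeting the same criterion. The part of this library's composition in the results was not tested, beyond the values given without it.

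Short-term repair replicate 4 was highest of its group for GATAD1 (37.3 CPM), SMCO2 (2.43 CPM), TRIM32 (17.2 CPM) and HSF1 (96.6 CPM), and lowest for NPC1 (40.3 CPM) and TTC32 (5.86 CPM). Its list scores were lowest for small leucine-rich proteoglycans (3.63), basement membrane (5.30) and fibro-adipogenic progenitors (3.95). Short-term repair replicate 5 was highest for CREB3L2 (81.6 CPM) and IER3 (118 CPM), and lowest for PPARGC1A (3.35 CPM) and GABPB2 (2.33 CPM).

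Other long-term libraries that lay far from their group were gel replicate 5, highest for VWA3A (4.02 CPM), PLN (229 CPM) and interferon response genes (mean log2 CPM 3.04), and gel replicate 2 for MMP12 (0.0779 CPM, with the rest at 0). Repair replicate 3 was highest for ATP1B4 (136 CPM), GABPB2 (11.9 CPM), IL7R (0.587 CPM) and CXCL9 (0.88 CPM), repair replicate 1 lowest for HSPB7 (853 CPM) and highest for PODN (55.8 CPM), and repair replicate 4 highest for RGMA (24.4 CPM). In the short term these were gel replicate 3, lowest for YTHDF1 (8.62 CPM), repair replicate 2, highest for ATXN7L2 (19.2 CPM), and repair replicate 3, highest for TRIM63 (340.0 CPM).

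The gel effect differed between terms for XBP1 by the test of the interaction (1.91, edgeR adjusted p = 0.036). For YTHDF1 (1.11), PPP1R3E (-1.34) and GABPB2 (-1.32) every gel library lay on one side of the repair libraries in the long term and on the other side in the short term, and the interaction test, at adjusted p-values of 0.509, 0.224 and 0.509, did not pass in edgeR, while that of PPP1R3E passed with DESeq2 (adjusted p = 0.00428).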

How the results depend on the processing

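The 1 interaction call (XBP1) became 21 with DESeq2 (8 higher, 13 lower) and 2 with all 34 libraries in 1 fit, and 0 with limma voom and 1 variance factor per group, with the replicate block and with long-term muscles set against their own uninjured muscle, linked by the animal codes of the files' names. It ranged from 0 to 2 when 1 library was left out. The 4 short-term calls became 131 with DESeq2, 93 with all 34 libraries, 11 with the uninjured muscles as partners, 2 with short-term libraries thinned to the long-term depth, 1 with voom and group variances, with no filter and with the replicate block, and 0 with voom quality weights and with each term fitted by itself. Leaving out 1 library gave 1 to 362 short-term calls, the highest without short-term repair replicate 4, and leaving out that library and long-term gel replicate 1, chosen after seeing the data, gave 1023 (450 higher, 573 lower). The 0 long-term calls became 3 with DESeq2 and with voom quality weights, 1 with group variances and with all 34 libraries, and 0 to 1 with 1 library left out, the 1 without long-term repair replicate 3. With no filter on low counts 1129 genes turned, 1403 faded, 1303 kept and 836 gained an effect in the long term, and with a stricter filter 182 gained one.

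The replicate block gave XBP1 an interaction of 1.82 (adjusted p = 0.239), and voom with group variances 1.82 (adjusted p = 0.0597). The COL1A1 interaction was -0.088 with voom quality weights, -0.13 with group variances and -0.194 with the replicate block, and ADIPOQ had 0.048 with voom quality weights. With 1 library left out, COL1A1 ranged from -0.401 (without short-term repair replicate 5) to 1.73, CD163 from -0.219 (without short-term repair replicate 1) to 1.68, PAX7 from -0.842 to 0.072 and POSTN from -1.40 to 0.14, both highest without short-term gel replicate 3. The cause was not tested. Of 2646 values of the 83 named genes, 2608 kept their sign and side of the threshold, and 21 of 39 list medians kept their sign in every alternative. XBP1 was the 1 named gene past the threshold, so for the rest this count does not measure whether an interaction kept its size. IER3, at 2.17 and at 0.03 without short-term repair replicate 5, was counted as kept in all 32 alternatives, while XBP1 was so in 18. The lymphocyte list, the neutrophil and mast cell list and the cell cycle list had long-term scores below 0 in mean log2 CPM, so few counts stand behind them.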

Other observations

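The remaining lists are given by their median gel effect in the long term and then in the short term. Genes of TGF-beta signalling, which drives fibrosis, had -0.03 and -0.54 (19 genes). The signal transducer SMAD3 had an interaction of 0.75 (SE 0.28), and the ligand TGFB2 one of -1.21 (SE 0.55). Denervation and neuromuscular junction genes had 0.33 and -0.10, core clock genes 0.13 and -0.21, proteasome genes 0.23 and -0.06, and Schwann cell genes 0.40 and 0.01. Matrix proteases and inhibitors had -0.35 and -0.78, cartilage and bone genes -1.13 and -0.63, and basement membrane genes -0.31 and -0.00. Calcium handling genes had 0.42 and 0.31, myogenic regulators 0.21 and 0.12, cytosolic ribosomal proteins 0.40 and 0.24, and immediate early genes -0.69 and -0.75. Without long-term gel replicate 1 the median interaction of the denervation list was 0.025 in place of 0.50, and that of the proteasome list 0.15 in place of 0.31. Without short-term repair replicate 5 it was 0.28 in place of 0.48 for TGF-beta signalling, and -0.31 in place of 0.34 for matrix proteases. It was 0.40 in place of -0.35 for cartilage and bone genes without long-term repair replicate 4, and 0.06 in place of 0.37 for Schwann cell genes without short-term repair replicate 3.

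Lists with medians under 0.2 in size in both terms were the cell cycle (-0.11 and -0.10), heat shock (-0.05 and 0.03), mitochondrial biogenesis regulators (0.00 and -0.03), endothelial genes (0.06 and -0.08), pericyte and smooth muscle genes (0.14 and -0.12) and pro-inflammatory cytokines (0.19 and 0.15, 7 genes). For the cytokine genes the median interaction was -0.88, and -1.04 to -0.52 in the alternatives, and 4 of the 7 genes faded (3.86% of all genes). Of 16 listed cytokine genes, 13 were in the counts and 7 passed the expression filter. A gene can pass that filter by its level in short-term gel muscles alone, so these values are a description and give no support. Neutrophil and mast cell genes had 0.48 and 0.28 (4 genes) and erythroid genes 1.08 and -1.25 (2 genes).

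Members of these lists with an unadjusted interaction p under 0.05, of which 0 passed the adjusted threshold, included the von Willebrand factor gene VWF (1.31), the secreted bone and immune protein SPP1 (-3.36), the basement membrane protein NID2 (-0.97), the chaperonin HSPD1 (-0.80), the heat shock factor HSF1 (0.94), the proteasome subunit PSMD2 (0.78), the glial cadherin CDH19 (-2.21) and the proliferation marker MKI67 (-2.40). HSF1 and PSMD2 had 0.53 and 0.46 without long-term gel replicate 1. MKI67 ranged over 0 to 0.332 CPM in long-term gel muscles, against 0.282 to 0.734 CPM in long-term repair muscles, so few counts stand behind its value. The fucose mutarotase FUOM had effects of 0.33 (SE 0.17) in the long term and 0.81 (SE 0.16) in the short term, and FAM206A had -0.04 (SE 0.20) and 0.97 (SE 0.20).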
